A study of Mus musculus with 12 samples.

Results

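The genes described here are the 84 protein-coding genes of mouse cytosolic ribosomal proteins and their named relatives. They were chosen by symbol, as protein-coding genes starting with Rpl or Rps followed by a digit or p, together with Rpsa, without Rps6k kinases and symbols ending in -ps, and with a mean expected count of at least 10 over the libraries. They are 84 of the 55335 genes listed, and all 84 were among the 14357 genes tested. By name, 43 encode proteins of the large subunit, 3 encode the acidic stalk (Rplp0, Rplp1 and Rplp2), 31 encode proteins of the small subunit, 5 are paralogs (Rpl3l, Rpl22l1, Rpl36al, Rps27l and Rps27rt), and 2 are not ribosomal proteins by name (Rps19bp1, whose product binds RPS19, and Rpl7l1, an RPL7-like gene). A further 2 symbols met the name rule but not the count rule: Rpl10l, at 0 counts in all 12 libraries, and Rpl39l, with a mean of 7.0 counts.

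RNA-seq was carried out on 12 libraries of dendritic cells grown for 6 days from mouse bone marrow with GM-CSF, in 4 groups of 3. All cells came from mice that carry the tamoxifen-inducible CreER transgene with an intact Ctcf gene, so the groups differ in treatment and not in genotype. WT cells (replicates 4 to 6) were resting, and WTL cells (replicates 4 to 6) received 100 ng/ml lipopolysaccharide (LPS), a bacterial cell wall product that activates dendritic cells, for 3 h. WT + JSH23 and WTL + JSH23 cells (replicates 1 to 3 of each) received 100 µM JSH-23, a small molecule used to block nuclear entry of NF-κB, for 3 h, and the WTL + JSH23 cells were then stimulated with LPS as above. Cells were taken from male and female adult mice and selected with beads for CD11c, so a culture still holds cells of more than one state. Whether the cells without JSH-23 received its solvent is not stated in the sources used here, and no batch is named, so JSH-23 and any difference in preparation between replicates 1 to 3 and 4 to 6 cannot be told apart.

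Cytosolic ribosomes are built in the nucleolus from ribosomal RNA and a large set of proteins, most of which are normally needed in equal amount. The mRNAs of these proteins start with a run of pyrimidines, the terminal oligopyrimidine or TOP motif, through which mTOR and the RNA-binding protein LARP1 control how well they are translated. Their mRNA levels are therefore only one layer of control, and translation was not measured here. RNA-seq also reports only relative abundance, so fewer cells of a type and less RNA per cell cannot be told apart.

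Windows of 30 bases, from 20 bases before to 10 from the annotated start on, are shown for genes on which the results turn, because the start region is the feature the family is best known for. They are RefSeq starts on GRCm38.p6, printed 5′ to 3′ on the gene's strand, and capitals mark the longest unbroken run of C and T.
Rps27, chr3:90213639-90213668, minus strand: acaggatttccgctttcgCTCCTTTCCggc
Rps24, chr14:24490658-24490687, plus strand: acgcccccgcgctggggTCCTTCCTTgcgc
Rpl4, chr9:64173367-64173396, plus strand: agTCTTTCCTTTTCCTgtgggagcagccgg
Rps27l, chr9:66946066-66946095, plus strand: cctctccaCTCCTCCCCgccgcctctatcc
Rpl22l1, chr3:28805488-28805517, plus strand: cgtgcgtgcggcgcaagcccgTTCTCTTCC
Rpl24, chr16:55966255-55966284, plus strand: taggaagaaagCTgttgctaggaaacagac
Rpl36al, chr12:69184058-69184087, minus strand: gttcgcaTTCCCgtcgctcaggttcagttc
Rpl7l1, chr17:46782647-46782676, minus strand: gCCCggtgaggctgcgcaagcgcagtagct

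The longest run was 14 bases in Rpl4, 9 in Rps27, Rps24, Rps27l and Rpl22l1, 5 in Rpl36al, 3 in Rpl7l1 and 2 in Rpl24. The annotated start is the base that follows the first 20 of each window. The marked runs of Rps27 and Rps24 cross it, and that of Rpl22l1 lies after it. Those of Rpl4, Rps27l, Rpl36al, Rpl7l1 and Rpl24 lie wholly before it, so they are not part of an mRNA that begins there. The set of RefSeq starts used here held a start for 64 of the 84 genes. It held 2 starts each for Rps24 and Rps27l, of which only the first is shown above. A C at the annotated start followed by at least 4 pyrimidines was found in 14 of the 64 genes (21.9%), against 3.01% of all 27025 genes of the set. The letters CTTTC or CTTCC, searched on both strands and able to overlap each other, stood on the gene's own strand of the window in 23 of 64 genes (35.9%) against 12.4% of all genes, and on the other strand in 15.6% against 11.7%. A run of at least 8 pyrimidines was present in 28 of 64 genes (43.8%) against 14.5%. A match describes the annotated window and is no evidence of the start used in these cells.

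The family is also rich in host genes of small nucleolar RNAs, which guide modification of ribosomal RNA and are processed from introns. At least 1 annotated snoRNA gene lay inside the gene and on its strand for 30 of the 84 members (35.7%), against 209 of the 12299 protein-coding genes tested (1.70%), members included. Rpl4 held 5 such genes and Rpl13a held 4. Of the members, 14 lay on chromosome 7 and 8 each on chromosomes 9 and 17.

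Read assignment limits some members. Coding sequences of Rps27 and Rps27rt were identical over all 255 bases (100%), so the split of their reads rests on the untranslated ends and on the counting model. Identity was counted over all aligned columns, gaps included, of the longest complete coding sequence of each gene. On this count Rpl22l1 was 68.2% identical to Rpl22 and Rpl36al was 87.9% identical to Rpl36a. Rpl3l was 73.3% identical to Rpl3 and Rpl7l1 was 54.1% identical to Rpl7. Rps27l was 61.0% identical to Rps27, with 194 identical of 318 columns. There, 318 bases of Rps27l were aligned to 255 of Rps27, so gaps lower the value. The first 30 coding bases of the Rps27 group show this contrast, with capitals at the 10 positions where Rps27 and Rps27l differ.
Rps27: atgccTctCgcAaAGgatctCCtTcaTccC
Rps27l: atgccCctGgcTaGAgatctGTtAcaCccT
Rps27rt has the same 30 bases as Rps27. Counts of Rps27l, Rpl22 and Rpl7l1 were whole numbers within 1e-06 in all 12 libraries, whereas counts of Rps27, Rps27rt, Rpl24, Rpl22l1 and Rpl36al were fractional in all 12. Over the family, 58 genes were fractional in every library. Of the 84 members, 17 overlap another tested gene, 15 of them only a gene on the opposite strand, and whether counting used strand is not stated in the sources used here.

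Ribosomal protein mRNAs were among the most abundant transcripts in every group. Of the 200 genes with the highest mean TPM (a level per transcript length, scaled to the same total in each library), 55 were members, and 79 were among the highest 500. The median over the 77 genes of the subunits was 989 TPM, against 13.0 TPM over all protein-coding genes tested. Rps27, a small-subunit protein, led with 3336 TPM on average (range over the 12 libraries 2952 to 3714), above Rplp1 of the stalk with 2131 TPM (1861 to 2378), and these ranges did not overlap. Rps24 followed with 2001 TPM, then Rps14 with 1869 TPM and Rps29 with 1863 TPM, and the ranges of these 3 small-subunit genes overlapped.

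**Figure D1:**
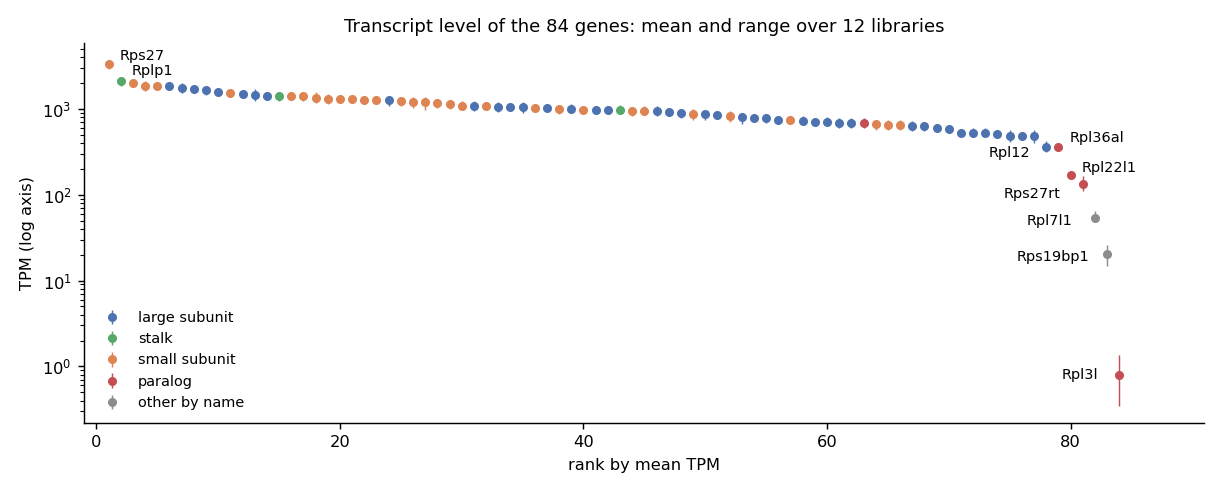
Mean TPM of the 84 genes over the 12 libraries, in order of level, on a log axis; vertical bars run from the lowest to the highest library and colours give the class. The 77 subunit genes lie between 363 TPM (Rpl12) and 3336 TPM (Rps27), Rpl36al lies just below them at 358 TPM, and the 5 lowest genes are Rpl22l1, Rps27rt, Rpl7l1, Rps19bp1 and Rpl3l.

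The subunit genes thus differed in level by 9.18-fold between Rps27 and Rpl12. The lowest members were paralogs and relatives. Rpl22l1 had 169 TPM, Rps27rt 133 TPM, Rpl7l1 53.9 TPM, Rps19bp1 20.4 TPM, and Rpl3l, a paralog known from striated muscle, 0.79 TPM with between 5 and 19 counts in a library. Rpl10l, known from testis, stayed at 0, which with 3 counts as the limit of an observed 0 sets an upper bound of 3 counts in a library.

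Total counts ran from 24664724 to 34837847 per library, and the cells carried their defining markers: Itgax, which encodes CD11c, stood between 236 and 331 TPM and Cd74, the MHC class II chaperone, between 12317 and 14374 TPM. Of the marker lists of other cells, B cell markers summed to at most 0.63 TPM and erythroid markers to at most 0.46 TPM, with Hba-a1 at 0 in every group, while T cell markers reached 7.07 TPM. Macrophage markers summed to 2744 to 2870 TPM in WT, 1850 to 1975 in WTL, 1965 to 2026 in WT + JSH23 and 1512 to 1541 in WTL + JSH23. The 10 dendritic cell markers, Cd74 among them, summed to 23812 to 24545 TPM in WT and 22538 to 23287 in WTL. The sums were 22766 to 23182 in WT + JSH23 and 21792 to 23002 in WTL + JSH23. With TMM, 8 of these 10 were called higher and 1 lower in WTL against WT, against 31.0% and 34.7% over all genes. With library totals the counts were 4 and 5, against 14.7% and 59.9%. The 8 neutrophil markers summed to between 171 and 226 TPM over all groups. The 5 cycling markers summed to 63.0 to 71.3 TPM in WT, 100.4 to 115 in WTL, 38.7 to 45.9 in WT + JSH23 and 76.1 to 78.7 in WTL + JSH23, with 1 of the 5 called higher and 4 lower in WTL against WT with TMM and Mki67 at 14.1 to 14.5 TPM in WT and 72.6 to 79.2 TPM in WTL, so these lists moved with LPS and with JSH-23, and their part in the results below was not tested. WTL + JSH23 replicate 3 stood furthest from its group, with a chi-square per degree of freedom over genes of 8.23 and 9.16 against the other libraries of the group, where all other pairs of a group lay between 2.33 and 4.52.

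The part of each library taken by ribosomal protein mRNAs was lower with LPS and higher with JSH-23. The 84 genes held 2.52%, 2.44% and 2.54% of counts in WT and 2.26%, 2.35% and 2.25% in WTL. With JSH-23 they held 2.81%, 2.74% and 2.89% in resting cells and 2.43%, 2.49% and 2.63% in LPS-stimulated cells. Every WTL library lay below every WT library, every WTL + JSH23 library lay below every WT + JSH23 library, and both JSH-23 groups lay above the matching group without it. The group means were 2.50% ± 0.053 (SD, n = 3) in WT, 2.28% ± 0.055 in WTL, 2.81% ± 0.071 in WT + JSH23 and 2.51% ± 0.10 in WTL + JSH23. As a share of TPM the means were 8.49%, 7.71%, 9.20% and 8.34%, with the same order of the groups except that WT and WTL + JSH23 overlapped on either scale.

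**Figure D2:**
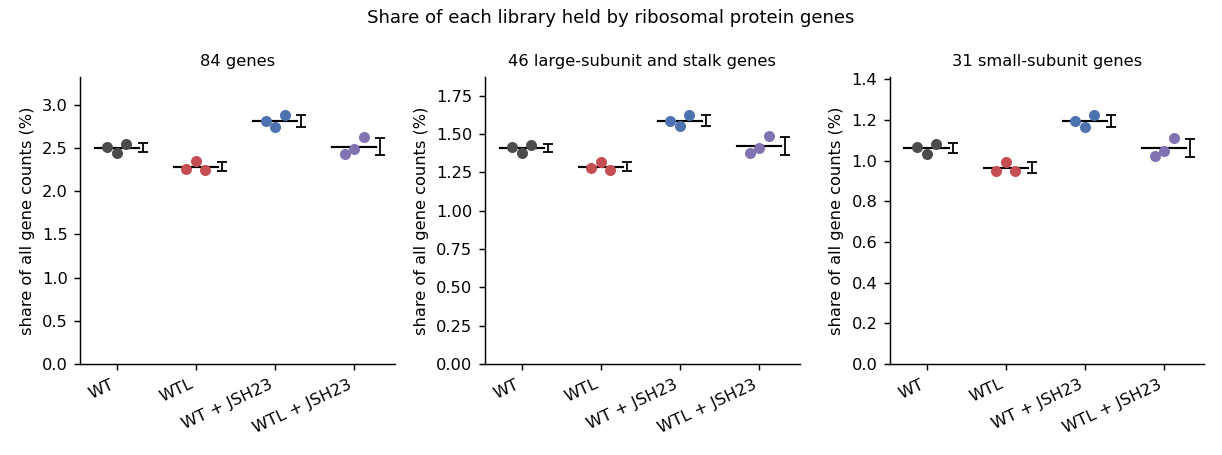
Share of all gene counts held by the 84 genes, by the 46 large-subunit and stalk genes and by the 31 small-subunit genes; points are libraries, horizontal lines are group means and bars at the side are ± 1 SD (n = 3). The WTL libraries (2.25% to 2.35% for the 84 genes) lie lowest and the WT + JSH23 libraries (2.74% to 2.89%) highest in each panel.

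Counts of the 31 small-subunit genes divided by those of the 46 large-subunit and stalk genes were 0.754 ± 0.0024 (SD, n = 3) in WT, 0.750 ± 0.0052 in WTL, 0.753 ± 0.0018 in WT + JSH23 and 0.747 ± 0.0030 in WTL + JSH23. The library ranges of WT and WTL overlapped. In counts, WTL + JSH23 (at most 0.7504) lay below both WT + JSH23 (at least 0.7510) and WT (at least 0.7519). As a ratio of TPM, WTL + JSH23 (0.8618 to 0.8718) overlapped WT + JSH23 (0.8663 to 0.8734) and lay below WT (at least 0.8771). Pseudogenes and other gene types with these stems, 298 in all, held only 0.0275% to 0.0355% of counts.

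Per gene, the LPS response without JSH-23 was small and shared across the family, and its sign depended on the scaling of the libraries. With TMM scaling, which assumes that most genes do not change, 81 of 84 members were called higher in WTL than in WT and 0 lower, whereas with library totals 2 were called higher and 62 lower. Over all genes tested, the first of these scalings called 31.0% higher and 34.7% lower, and the second called 14.7% higher and 59.9% lower. The median log2 fold change of the members was 0.20 with TMM, −0.13 with library totals and −0.16 on the log2(TPM + 1) scale, where 2 members were called higher and 69 lower, against 13.3% and 54.3% over all genes. The median of all genes tested moved alike, from −0.05 with TMM to −0.38 with library totals and −0.26 on the TPM scale. Relative to the median gene, the members were higher by 0.24 with TMM, 0.24 with library totals and 0.10 on the TPM scale.

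TMM and library totals shift all genes alike, so their equal distances are fixed by construction and only the TPM value is separate. The share of all counts held by the members was lower with LPS, as given above. The WTL libraries carried the lowest TMM factors, 0.859 to 0.880 against 1.08 to 1.09 in WT, which is the size of the correction that turned the sign. All 77 subunit genes were called higher with TMM, and the 3 members not called were Rps27rt, Rps19bp1 and Rpl3l. With library totals, 34 of the 46 large-subunit and stalk genes and 24 of the 31 small-subunit genes were called lower. No member passed a 2-fold change in any comparison.

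**Figure D3:**
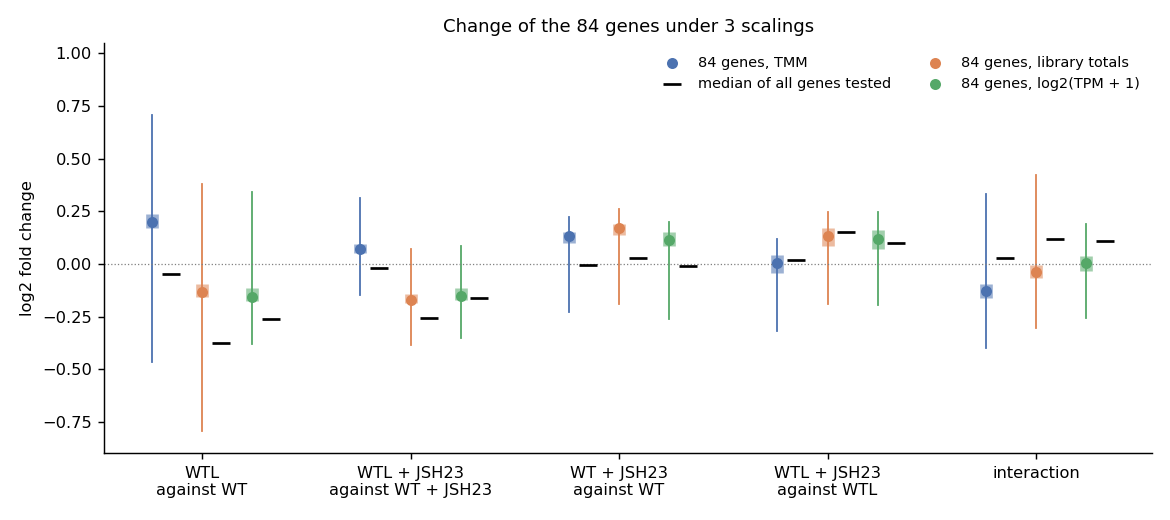
Log2 fold changes of the 84 genes in 5 comparisons under 3 scalings; points are medians, thick bars the quartiles, thin lines the full range over members, and black dashes the median of all 14357 genes tested in the same fit. For WTL against WT the member median is 0.20 with TMM, −0.13 with library totals and −0.16 on the log2(TPM + 1) scale, and it lies above the black dash each time.

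After JSH-23, the LPS response of the family was smaller relative to the median gene. With TMM, 18 members were called higher in WTL + JSH23 than in WT + JSH23 and 0 lower, against 27.4% higher and 27.1% lower over all genes, while library totals called 0 higher and 75 lower, against 14.0% and 52.9% over all genes. The member median was 0.07 with TMM, −0.17 with library totals and −0.15 on the TPM scale. Relative to the median gene the members were higher by 0.09 with TMM, 0.09 with library totals and 0.01 on the TPM scale. Among the TMM calls, Rps27l was higher by 0.31 and Rpl24 by 0.28, and both were above 0 in all 3 scalings. Rpl7l1 (0.18), Rps29 (0.18) and Rps19 (0.15) were called higher with TMM and had negative values with library totals and on the TPM scale. The count of 18 became 4 without WTL + JSH23 replicate 3, 4 without WT + JSH23 replicate 2, 8 without WT + JSH23 replicate 1 and 36 without WTL + JSH23 replicate 1. No share over all genes is given for these or the later fits with a library left out.

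JSH-23 in resting cells gave mostly higher calls in all 3 scalings. With TMM, 53 members were called higher in WT + JSH23 than in WT and 1 lower, against 18.8% higher and 22.1% lower over all genes. Library totals called 76 higher and 1 lower, against 22.8% and 18.7% over all genes, and the TPM scale called 43 higher and 1 lower, against 14.5% and 17.2%. The member medians were 0.13, 0.17 and 0.11 in this order, and relative to the median gene 0.14, 0.14 and 0.12. The member called lower each time was Rpl7l1. Without WT + JSH23 replicate 3 the TMM count was 29, and without WT replicate 5 it was 33.

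Rps3, a small-subunit protein that lines the mRNA entry channel, had the largest rise with JSH-23 in resting cells. Its level was 632, 627 and 655 TPM in WT and 699, 689 and 735 TPM in WT + JSH23. These groups did not overlap, and the log2 fold change was 0.22 ± 0.041 (SE, edgeR adjusted p = 0.000128) with TMM and 0.26 with library totals. Rps15a and Rps14 of the small subunit and Rpl4 of the large subunit were also among the largest rises, and Rpl4 rose from 687, 656 and 694 TPM to 766, 764 and 773 TPM (log2 fold change 0.18 ± 0.037, edgeR adjusted p = 0.00033).

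In LPS-stimulated cells, JSH-23 gave few member calls with TMM, 2 higher and 6 lower, against 24.5% and 24.2% over all genes. Library totals instead called 51 higher and 1 lower, against 38.0% and 15.6% over all genes, and the TPM scale called 46 higher and 1 lower, against 29.5% and 13.7%. The member median was 0.003 with TMM, 0.13 with library totals and 0.12 on the TPM scale, next to 0.02, 0.15 and 0.10 for all genes. The family thus moved with the median gene in each scaling, within 0.02. The members higher with TMM were Rpl4 (0.12) and Rplp0 (0.12), both also higher with library totals (0.25 each). The 6 lower members were Rps27l, Rpl36al, Rpl7l1, Rpl39, Rps24 and Rps25, of which Rpl39, Rps24 and Rps25 were above 0 with library totals. With DESeq2 the counts were 1 higher and 10 lower, and no share over all genes is given for that fit. The TMM counts became 0 higher and 13 lower without WTL + JSH23 replicate 3, 6 and 3 without WTL + JSH23 replicate 1, 4 and 3 without WTL replicate 5, 1 and 3 without WTL replicate 4, and 1 and 9 without WTL replicate 6.

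The log2 fold changes of members had a smaller spread than those of all genes tested. Median levels were 973 TPM for members and 13.0 TPM for protein-coding genes tested, and no set matched in level was compared. The SD of the log2 fold change over members was 0.11 for WTL against WT, 0.06 for WTL + JSH23 against WT + JSH23, 0.07 for WT + JSH23 against WT and 0.07 for WTL + JSH23 against WTL, against 0.91, 0.74, 0.55 and 0.62 over all genes tested. A further fit showed which genes departed from the family in a way that no common factor per library can change. The summed counts of the 84 genes were taken as the size of each library, a choice made after the data were seen. A correction for effective length, as on the TPM scale, can still change such a departure. In this fit a member near 0 kept its proportion within the family. For WTL against WT, 7 members were called higher and 2 lower than the family total, against 18.2% higher and 47.9% lower over all genes, and for WTL + JSH23 against WT + JSH23 the calls were 2 higher and 0 lower, against 20.2% and 31.6%.

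Rps27l, an RPS27-like protein known as a p53 target in other settings, departed furthest among the members called. It made up 4.28, 4.18 and 4.06 of every 1000 family counts in WT and 6.07, 5.90 and 5.84 in WTL. It made up 3.99, 3.93 and 4.11 in WT + JSH23 and 4.88, 4.96 and 4.34 in WTL + JSH23. The LPS-stimulated libraries all lay above the resting ones, and the WTL + JSH23 libraries lay between WT + JSH23 and WTL without overlap. The departure from the family was 0.51 ± 0.053 on the log2 scale without JSH-23 (SE, edgeR adjusted p = 5.31e-08) and 0.24 ± 0.054 with it (edgeR adjusted p = 0.000917). Both departures were called in all 12 fits that each left out one library.

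The difference between the LPS responses of Rps27l was itself tested. The interaction was −0.27 ± 0.076 within the family (edgeR adjusted p = 0.0173), and it was called in all 12 fits with a library left out, where the highest adjusted p was 0.04996. Over all genes the within-family fit called 2.68% of interactions lower and 16.3% higher. In the scalings of whole libraries the interaction of Rps27l was −0.40 with TMM (edgeR adjusted p = 0.00015), −0.31 with library totals (edgeR adjusted p = 0.00118) and −0.26 on the TPM scale (limma adjusted p = 0.0154). Its level was 638, 597 and 609 TPM in WT, 788, 789 and 757 TPM in WTL, 636, 622 and 665 TPM in WT + JSH23 and 694, 702 and 643 TPM in WTL + JSH23. The WT and WTL groups did not overlap, and those with JSH-23 did.

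Without JSH-23, Rps27l rose in every scaling, by 0.71 ± 0.045 with TMM (edgeR adjusted p = 8.07e-12), 0.38 with library totals (edgeR adjusted p = 9.16e-08) and 0.34 on the TPM scale (limma adjusted p = 1.14e-05). With JSH-23 the rise was 0.31 with TMM (edgeR adjusted p = 5.14e-06), and it was 0.07 with library totals and 0.08 on the TPM scale, neither of which passed the threshold. Its parent-like gene Rps27, of which it is a paralog, kept its proportion in the family: 9.88 ± 0.053 per 1000 family counts in WT and 10.1 ± 0.10 in WTL (SD, n = 3) (log2 departure 0.03 ± 0.042, edgeR adjusted p = 0.551). Rps27l therefore went from 18.0 ± 0.41 per 100 TPM of Rps27 in WT to 25.5 ± 0.43 in WTL, and from 17.7 ± 0.55 in WT + JSH23 to 20.9 ± 1.4 in WTL + JSH23 (SD, n = 3 each). Rps27rt had 4.21 ± 0.25 per 100 TPM of Rps27 in WT and 3.68 ± 0.058 in WTL.

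**Figure D4:**
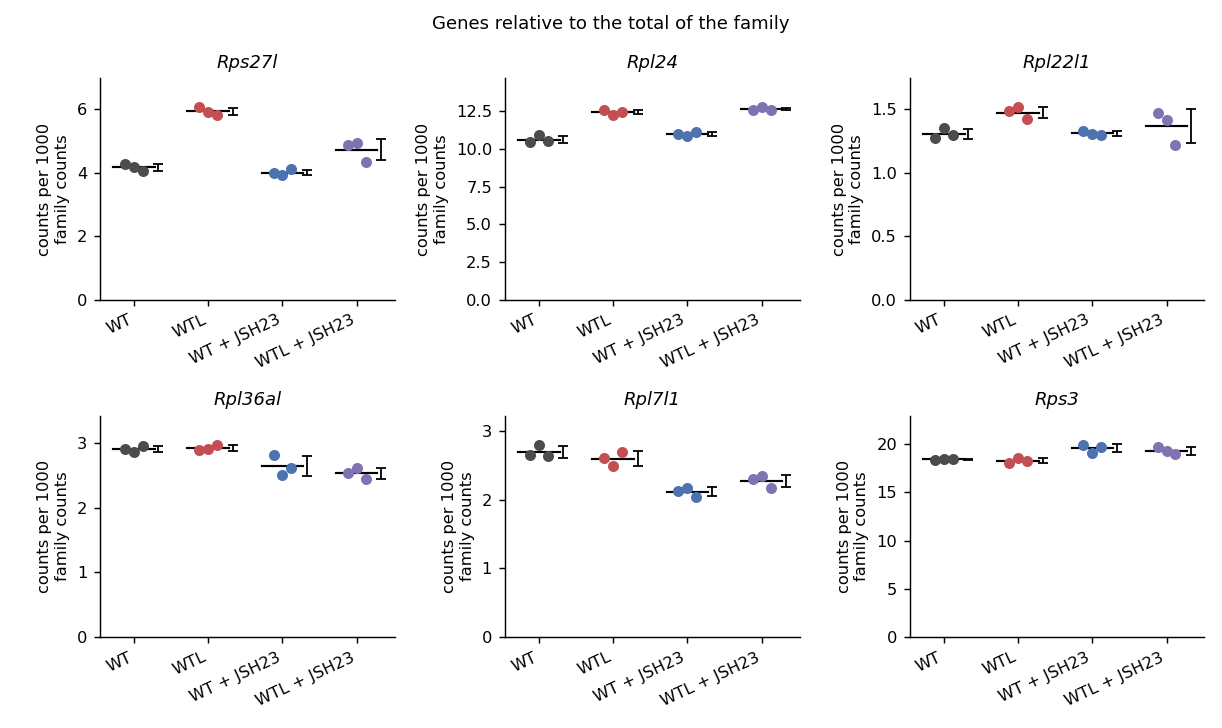
Counts of 6 genes per 1000 counts of the 84 genes; points are libraries, lines are group means and bars at the side are ± 1 SD (n = 3). Rps27l is highest in WTL (5.84 to 6.07), Rpl24 is higher in both LPS groups, Rpl36al and Rpl7l1 are lower in both JSH-23 groups, and Rps3 lies between 18.0 and 19.9 throughout.

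Rpl24, a large-subunit protein at the interface of the subunits, departed from the family after LPS to a like extent in both settings. It made up 10.5, 10.9 and 10.5 per 1000 family counts in WT and 12.6, 12.3 and 12.5 in WTL, and between 10.8 and 11.1 in WT + JSH23 and 12.6, 12.8 and 12.6 in WTL + JSH23. Each LPS group lay wholly above its resting group. The departures were 0.23 ± 0.041 (edgeR adjusted p = 6.79e-05) and 0.21 ± 0.041 (edgeR adjusted p = 0.000323), both called in all 12 fits with a library left out, and their difference was −0.02 ± 0.059 (edgeR adjusted p = 0.834). In WTL against WT, Rpl24 was higher by 0.43 with TMM, 0.10 with library totals (edgeR adjusted p = 0.0258) and 0.08 on the TPM scale (limma adjusted p = 0.0358). With Rps27l it was the only member called higher under all 3 scalings in that comparison.

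**Figure D5:**
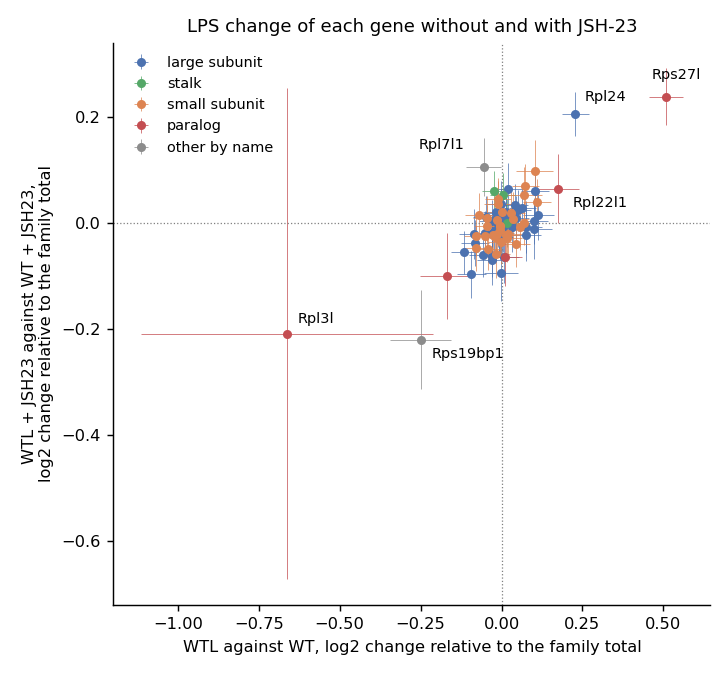
Log2 change with LPS of each of the 84 genes relative to the family total, without JSH-23 (horizontal) and with JSH-23 (vertical); bars are standard errors from the edgeR fit and colours give the class. Rps27l (0.51 and 0.24) and Rpl24 (0.23 and 0.21) stand apart from the cluster near 0, and Rpl3l has wide errors at 5 to 19 counts per library.

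The other departures with LPS alone were smaller. Rpl22l1, the paralog of Rpl22, was 0.18 ± 0.065 above the family (edgeR adjusted p = 0.0230), Rpl27 0.11 ± 0.047, Rps25 0.11 ± 0.043, Rpl34 0.10 ± 0.042 and Rpl37a 0.10 ± 0.043. Rps19bp1 fell below the family by 0.25 ± 0.094 (edgeR adjusted p = 0.0243), and Rpl3, which forms part of the peptidyl transferase centre, by 0.11 ± 0.040 (edgeR adjusted p = 0.0170). These calls were less stable than those of Rps27l and Rpl24: when one library was left out, Rpl22l1 was called in 8 of 12 fits, Rps25 in 7, Rpl27 and Rpl34 in 6, Rpl37a in 2, Rps19bp1 in 10 and Rpl3 in 11. Rpl22l1 went from 23.6 ± 0.79 per 100 TPM of Rpl22 in WT to 26.5 ± 1.1 in WTL, and these groups did not overlap. In WTL + JSH23 it had 27.3, 26.1 and 23.5 per 100 TPM of Rpl22, the last from replicate 3, against 23.5, 23.7 and 23.9 in WT + JSH23, so these overlapped.

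With JSH-23 in resting cells, 0 members were called above the family and 2 below, against 9.45% and 33.7% over all genes. Rpl7l1, thought to act in ribosome assembly, made up 2.65, 2.80 and 2.64 per 1000 family counts in WT and 2.13, 2.17 and 2.04 in WT + JSH23, without overlap. It fell below the family by 0.35 ± 0.054 (edgeR adjusted p = 2.13e-05), and in whole-library terms fell by 0.22 with TMM (edgeR adjusted p = 0.000125), 0.18 with library totals (edgeR adjusted p = 0.000871) and 0.26 on the TPM scale (limma adjusted p = 0.00533). Rpl36al departed from the family by −0.13 ± 0.053 (edgeR adjusted p = 0.0467), a call made in 3 of 12 fits with a library left out. In whole-library terms its change did not pass, with 0.00084 with TMM and 0.038 with library totals.

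With JSH-23 in LPS-stimulated cells, 2 members were called above the family and 7 below, against 21.7% and 22.3% over all genes. The lower ones were led by Rps27l, which relative to the family fell by 0.33 ± 0.053 (edgeR adjusted p = 3.69e-05). Rpl36al, the paralog of Rpl36a that overlaps a predicted gene on its own strand, followed with a fall of 0.21 ± 0.054 (edgeR adjusted p = 0.00326) and Rpl7l1 with a fall of 0.19 ± 0.055 (edgeR adjusted p = 0.00710). These 3 calls were made in all 12 fits with a library left out. Rpl36al made up 2.89, 2.91 and 2.97 per 1000 family counts in WTL and 2.53, 2.62 and 2.44 in WTL + JSH23, without overlap. Against Rpl36a it stood at 71.0 ± 1.7 per 100 TPM in WTL and 65.5 ± 0.62 in WTL + JSH23 (SD, n = 3).

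Rps24, Rpl27, Rps25 and Rpl39 were lower by 0.12 to 0.14 in that comparison, and Rpl4 and Rplp0 were higher by 0.11 each. Of the stalk proteins, which recruit elongation factors to the ribosome, Rplp0 made up 38.1, 38.3 and 38.1 per 1000 family counts in WTL and 41.2, 40.3 and 41.7 in WTL + JSH23, without overlap (0.11 ± 0.037, edgeR adjusted p = 0.0258). Rplp1 and Rplp2 had departures of 0.04 ± 0.041 and −0.06 ± 0.046, which did not pass (edgeR adjusted p = 0.429 and 0.348). When one library was left out, the calls of Rplp0 and Rpl4 were made in 8 and 9 of 12 fits, and those of Rps24, Rps25, Rpl27 and Rpl39 in 11, 7, 5 and 3. Rpl27 was not called with TMM in this comparison (edgeR adjusted p = 0.0818).

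The test of whether JSH-23 altered the LPS response gave 14 members called lower and 0 higher with TMM, against 8.44% lower and 9.54% higher over all genes. The lower count was 27 with DESeq2 size factors and 38 with DESeq2, and no share over all genes is given for these fits. With library totals it gave 1 lower and 0 higher, against 4.53% and 17.4% over all genes, and the 1 gene was Rps27l. The median interaction over members was −0.13 with TMM, −0.04 with library totals and 0.004 on the TPM scale, and relative to the median gene it was −0.16, −0.16 and −0.10. The 14 genes are Rps27l, Rpl22l1, Rpl38, Rpl35a, Rpl27, Rpl37a, Rpl39, Rps24, Rpl36a, Rps25, Rps23, Rps13, Rps27a and Rps10. Of these, Rps27l and Rpl35a were called in all 12 fits with a library left out and Rps24 in 11. The count itself ran from 3 without WTL replicate 5 or WT + JSH23 replicate 3 to 50 without WTL + JSH23 replicate 3. It was 25 without WTL replicate 6 or WT + JSH23 replicate 2, 10 without WTL + JSH23 replicate 2, and from 4 to 8 without any of the other 6 libraries. Shares over all genes are not given for these fits, so a shift of all genes can not be told from one of the family.

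Effective length moved with part of the spread among members. Over the 77 subunit genes, the log2 fold change of WTL against WT with TMM was correlated with log2 effective length at r = −0.44 (Pearson) and rho = −0.47 (Spearman), that of WTL + JSH23 against WTL at 0.44 and 0.41, that of WT + JSH23 against WT at 0.19 and 0.16, that of WTL + JSH23 against WT + JSH23 at −0.13 and −0.07, and the interaction at 0.42 and 0.42. These values are across genes of the same libraries, and genes are not independent replicates. The fragment length implied by the deposited effective lengths was 249.6 to 253.6 bases in WT, 243.8 to 246.0 in WTL, 246.8 to 249.6 in WT + JSH23 and 240.3 to 249.3 in WTL + JSH23, shortest in WTL + JSH23 replicate 3. Members are short, with a median effective length of 418 bases against 2270 over protein-coding genes tested, and the part of fragment length in the results was not tested. On the TPM scale, which corrects for effective length, Rps27l and Rpl24 kept their TMM signs for WTL against WT and Rpl7l1 kept its sign for WT + JSH23 against WT, while Rpl7l1 in WTL against WT was at 0.14 with TMM and at −0.19 with library totals and −0.18 on the TPM scale.

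Other genes of the pathway were read from lists chosen with earlier results known. Over all genes, WTL against WT gave 31.0% higher and 34.7% lower calls with TMM and 14.7% and 59.9% with library totals, and WT + JSH23 against WT gave 18.8% and 22.1% with TMM and 22.8% and 18.7% with library totals, and the counts below stand beside these shares. Of ribosomal proteins with other symbols, Fau (a small-subunit fusion protein) and Rack1 (a small-subunit scaffold) were called higher with TMM in WTL against WT, at 0.22 and 0.15, and were at −0.11 and −0.18 with library totals. In WT + JSH23 against WT, Rack1 was called higher (0.16, edgeR adjusted p = 0.00166) and Fau had a value of 0.07 (edgeR adjusted p = 0.243). Of 15 translation factors and related genes with a TOP motif, 12 were called higher and 1 lower with TMM and 1 higher and 10 lower with library totals in WTL against WT. In WT + JSH23 against WT, 12 of the 15 were called higher and 0 lower with TMM and 13 higher and 0 lower with library totals, led by Nap1l1 (0.33), a histone chaperone, and Npm1 (0.31), a nucleolar chaperone. Eif4b, which helps unwind mRNA 5′ ends, was the only member of the list called lower with TMM in WTL against WT, by 0.17. With library totals, where 10 were called lower, it fell by 0.50.

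Of 40 ribosome biogenesis genes, 19 were called higher and 11 lower in WTL against WT with TMM, and 5 higher and 21 lower with library totals. Rrs1, needed for assembly of the large subunit, rose by 2.22 with TMM and 1.89 with library totals, and Sbds, which helps release a factor from the new large subunit, rose by 1.17 with library totals and by more with TMM. Wdr12, another assembly factor, had a change of −1.33 with library totals, and Polr1b, a subunit of RNA polymerase I, of −0.94 with TMM and −1.27 with library totals. With JSH-23 in resting cells 9 were called higher and 3 lower: Gnl3, a nucleolar GTPase, rose by 0.75 and Polr1a, the largest subunit of RNA polymerase I, fell by 0.83 with TMM. With TMM the interaction was called lower for 3 and higher for 2 of the 40, against 8.44% and 9.54% over all genes. The lower ones included Ltv1 (−0.60), a small-subunit assembly factor, and Sbds (−0.34). Those called higher were Nat10 (0.49) and Heatr1 (0.32).

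Among 14 tested regulators of TOP mRNAs, 4 were called higher and 7 lower in WTL against WT with TMM, and 3 higher and 11 lower with library totals. Larp1, which binds TOP mRNAs, rose by 0.55 with TMM and 0.22 with library totals, and Eif4e, the cap-binding factor, by 0.80 and 0.47. Eif4ebp2, an inhibitor of that factor, had changes of −0.79 and −1.12, and Myc, a transcription factor for ribosome genes, of −1.01 and −1.34. Eif4ebp1 rose with JSH-23 in resting cells by 1.10 with TMM and 1.13 with library totals, and in LPS-stimulated cells by 1.10 and 1.23. Proteins of the mitochondrial ribosome are a separate family, and no test compared it with the cytosolic one. With TMM, of 79 genes, 10 were called higher and 28 lower in WTL against WT, and 10 higher and 3 lower in WT + JSH23 against WT. With library totals the counts were 1 and 64, and 11 and 0. Their medians lay 0.01 and 0.002 above the median of all genes in these comparisons with TMM, where those of the cytosolic members lay 0.24 and 0.14 above it.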

How the data were processed

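RNA-seq libraries were made from 12 dendritic cell cultures. The labels name an rRNA depletion kit and the methods a poly(A) kit, and this was not settled. The authors trimmed reads, aligned them to mm10 with STAR (2.6.0c in the submitters' processing notes) and ran RSEM; the deposited files hold expected counts and TPM per gene, and the annotation release is not given in the sources used here. Identifiers matched GENCODE M21 for 55154 of 55335 genes. Authors' FPKM columns were not used.

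Expected counts were rounded, filtered with filterByExpr, scaled with TMM and fitted with edgeR 4.0.16 (R 4.3.3) quasi-likelihood tests, with one mean per group and 8 residual degrees of freedom; Benjamini-Hochberg adjustment ran over 14357 genes and a call is an adjusted p under 0.05. A log2 fold change is the second-named group subtracted from the first. SE is the log2 fold change divided by the square root of F. Alternatives used library totals, upper quartile and DESeq2 (1.42.0) size factors, DESeq2, limma (3.58.1) on log2(TPM + 1), other filters, a replicate block and each library left out. The edgeR steps were tested on simulated counts. Counting error and spread among cultures are both inside these tests; whether replicates are separate mice is not stated, so the p-values measure only the spread between these samples.

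Members and lists were chosen with earlier results of these data known. In each comparison the 5 called members with the largest rise and fall were named, with the 5 highest and 5 lowest in TPM, paralogs, stalk genes, the members that are no ribosomal protein by name, and the 2 largest called rises and falls of each list. Departures from the family were read from a fit scaled to the family's total, added after seeing the data. Values of some single genes are not reported here.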

Additional observations from a re-analysis of the deposited data

Results flagged for a closer look

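The LPS response differed between cells without and with JSH-23 for 14 members by the interaction test of edgeR with TMM. These were 14 lower and 0 higher calls, against 8.44% lower and 9.54% higher over all genes. Each of the 14 had a lower log2 fold change with LPS after JSH-23, and that of Rpl39 was then −0.02. The interactions on the log2 scale were −0.40 for Rps27l, −0.24 for Rpl22l1 and Rpl38, −0.22 for Rpl35a, Rpl27, Rpl37a and Rpl39, −0.21 for Rps24, −0.20 for Rpl36a, −0.19 for Rps25, Rps23 and Rps13, and −0.17 for Rps27a and Rps10. With library totals Rps27l was called (−0.31, edgeR adjusted p = 0.00118), and the other 13 had values from −0.15 to −0.07 with an edgeR adjusted p between 0.108 and 0.356. On the log2(TPM + 1) scale 1 member was called lower, Rps27l (limma adjusted p = 0.0154), against 362 of 14357 genes. Against the total of the family, the interaction of Rps27l was −0.27 (edgeR adjusted p = 0.0173). JSH-23 and any unrecorded preparation of replicates 1 to 3 apart from 4 to 6 cannot be told apart.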

How the results depend on the processing

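Over single genes, 744 of 858 gene-by-alternative values kept direction and call, 79 lost the call, 5 gained it and 30 turned sign. In WTL against WT, 81 higher and 0 lower became 2 and 62 with library totals and 2 and 69 with limma on log2(TPM + 1), and 0 passed 2-fold; the member median of 0.20 became 0.12 with upper quartile scaling, −0.13 with library totals and −0.16 with limma, and its distance of 0.24 from the median gene became 0.19 without the filter and 0.10 with limma. In WTL + JSH23 against WT + JSH23, 18 higher and 0 lower became 3 and 2 with upper quartile scaling, 0 and 75 with library totals and 0 and 71 with limma, and 0 passed 2-fold; the median of 0.07 became −0.016, −0.17 and −0.15, and the distance of 0.09 became 0.011 with limma. In WTL + JSH23 against WTL, 2 higher and 6 lower became 1 and 11 with DESeq2 size factors, 1 and 10 with DESeq2, 51 and 1 with library totals and 46 and 1 with limma, 6 were higher with upper quartile scaling, 4 with a mean of at least 1 CPM, and 0 passed 2-fold; the median of 0.003 became 0.13 with library totals and 0.12 with limma. In WT + JSH23 against WT, 0 passed 2-fold in either direction. The 14 lower interactions became 27 with DESeq2 size factors, 38 with DESeq2, 1 with library totals, 1 with limma and 0 past 2-fold; their median of −0.13 became −0.039 with library totals and 0.0037 with limma, and the distance of −0.16 became −0.10 with limma. The share of counts of 2.50%, 2.28%, 2.81% and 2.51% became 8.49%, 7.71%, 9.20% and 8.34% of TPM. No share over all genes is given for DESeq2, its size factors, upper quartile scaling or the CPM filter. Counts from those fits can therefore not be set against one. With limma, the interaction was called lower for 362 and higher for 1400 of 14357 genes. In WTL + JSH23 against WT + JSH23, limma called 5947 of them lower and 1977 higher. Why the alternatives differ was not tested.

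Among the named genes recomputed under every alternative, those that turned sign did so with library totals and with limma. In WTL against WT these were Rpl27 (−0.017 and −0.042), Rps25 (−0.021 and −0.054), Rplp0 (−0.15 and −0.16), Rplp1 (−0.13 and −0.16), Rplp2 (−0.11 and −0.15), Rps27 (−0.10 and −0.16), Rpl22 (−0.16 and −0.18), Rpl3 (−0.24 and −0.25), Rpl36a (−0.12 and −0.16), Rpl36al (−0.12 and −0.15) and, with limma, Rpl22l1 (−0.0057). In WTL + JSH23 against WT + JSH23 they were Rpl7l1 (−0.059 and −0.0041), Rps29 (−0.063 and −0.067) and Rps19 (−0.093 and −0.074), and in WTL + JSH23 against WTL they were Rps24 (0.0029 and 0.022) and, with library totals, Rpl39 (0.0017). In these 2 scalings, Rps25 also turned in WTL + JSH23 against WTL (0.019 and 0.024) and Rpl7l1 in WTL against WT (−0.19 and −0.18).

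With one library left out, WTL against WT gave 72 to 81 higher, WTL + JSH23 against WT + JSH23 4 to 36 higher, WTL + JSH23 against WTL 0 to 6 higher and 3 to 13 lower, WT + JSH23 against WT 29 to 65 higher, and the interaction 3 to 50 lower. Members that departed from the family numbered 3 to 12, 2 to 4, 4 to 9 and 1 to 2 in the first 4 of these comparisons. No share over all genes is given for the fits with a library left out, so their counts can not be set against one.

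Replicate numbers are shared within the pair WT and WTL and within the pair with JSH-23. Same-numbered libraries had correlations of their deviations between 0.0142 and 0.0614 (6 pairs) against −0.0564 to 0.0355 for other numbers, and 10 of 12 libraries correlated best with their own number, a hint from the data, but no pair passed 0.1, so the samples were treated as sharing only a number. With the replicate block, the lower interactions of members numbered 26, against 14 without it. WTL against WT kept 81 higher, and WTL + JSH23 against WT + JSH23 had 27 higher. No share over all genes is given for the fit with the block. Expected counts of 5 to 19 limit Rpl3l.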
